A study of Mus musculus with 14 samples.

Results

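A set of 10 genes of the bone-resorbing osteoclast was read across 8 libraries of marrow cultures described as macrophages. The set holds the receptor genes Tnfrsf11a and Oscar, the signalling genes Traf6 and Src, and the transcription factor gene Nfatc1. It also holds the fusion genes Dcstamp and Ocstamp, and the resorption genes Acp5, Ctsk and Atp6v0d2. They were found by symbol, and all 10 members were among the 17890 genes of the table, with 37 transcripts of the 60072 listed. The cells are described as macrophages grown from the bone marrow of male C57BL/6J mice that entered the study at 8 weeks of age. Mice of the D group carried diabetes made with the beta-cell toxin streptozotocin, injected at 42 to 45 mg/kg on each of 5 days, with a glucose reading over 16.9 mmol/L required and 6 weeks of high glucose before marrow was taken. The M group is read here as the healthy control mice, for which no injection is described. Marrow progenitors of both groups then spent 7 days with the macrophage growth factor M-CSF at 5 mmol/L glucose, and the design text names no RANKL, the cytokine that turns such cells into osteoclasts. Each group had 4 libraries, written D1 to D4 and M1 to M4 where single ones are named. The letter D is the initial of diabetic, whereas M was assigned by elimination, so directions are stated for D against M and hold only under that reading of the letters. No label ties a library to its own animal, so the replicate spread behind each p-value could be technical only. The labels also list 6 second-phase samples, 3 diabetic-trained and 3 untrained, which were not analysed here.

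Osteoclasts arise by fusion of cells of the monocyte and macrophage lineage. RANKL binds RANK, the product of Tnfrsf11a, and RANK signals through the adaptor ligase TRAF6, while OSCAR and other receptors add a costimulatory calcium signal through adaptors with ITAM motifs. Both signals converge on NFATc1, the master transcription factor of the osteoclast, which switches on genes for fusion (Dcstamp, Ocstamp, Atp6v0d2) and resorption (Acp5, Ctsk), and the kinase Src then organises the ruffled border.

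The libraries held 19048195 to 20027967 estimated counts. Macrophage markers were present in all of them: their summed level was 9039 to 14308 CPM (counts scaled to library size) in D and 6527 to 7402 in M, with 9 of 14 tested markers higher in D and 1 lower, although Marco was near 0 in both groups (0.0126 CPM in D and 0.0250 in M) and Mertk and Mrc1 were low. Markers of other marrow cells were also present, and many differed between the groups. B-lineage markers summed to 81.6 to 282 CPM in D and 1257 to 1640 in M, with 10 of 13 lower in D and a median log2 fold change of -2.87. Neutrophil markers summed to 44241 to 67964 CPM in D and 38484 to 40428 in M (10 of 16 higher). These sums were above the macrophage sums in every library, but such sums are not shares of cells. Basophil and mast cell markers summed to 1056 to 1431 in D and 545 to 686 in M (7 of 8 tested higher). Of the erythroid and megakaryocyte markers, which summed to 928 to 3927 CPM in D and 3022 to 5453 in M, 4 of 9 were lower and 0 higher, with a median log2 fold change of -0.98. Dendritic cell markers were lower in 4 of 8, and monocyte markers higher in 5 and lower in 1 of 9. By the same test, given below, 34.7% of all tested genes passed, 17.4% higher and 17.3% lower in D. The part of these cells in the results that follow was not tested. In RNA from whole cultures, fewer cells of a type and less RNA per cell cannot be told apart.

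Of the 10 osteoclast genes, Acp5, Src and Traf6 fell in D and Tnfrsf11a rose. Nfatc1, Atp6v0d2 and Ctsk did not pass the test, and Dcstamp, Ocstamp and Oscar had too few counts to be tested. A gene was called when the Benjamini-Hochberg adjusted p of edgeR's quasi-likelihood test, adjusted over 12839 tested genes, was under 0.05. By this rule 34.7% of all tested genes were called, 17.4% higher and 17.3% lower in D, so calls among the 7 tested members stand on a high background. The same share of all tested genes, 34.7%, had groups that did not overlap. The median log2 fold change of the 7 tested members was -0.45 against -0.03 over all tested genes, and it leaves out the 3 that failed the count filter. Without D replicates 1 and 3, the pair of libraries that stood at the ends of their group in an earlier analysis, the counts were again 1 higher and 3 lower.

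**Figure D1:**
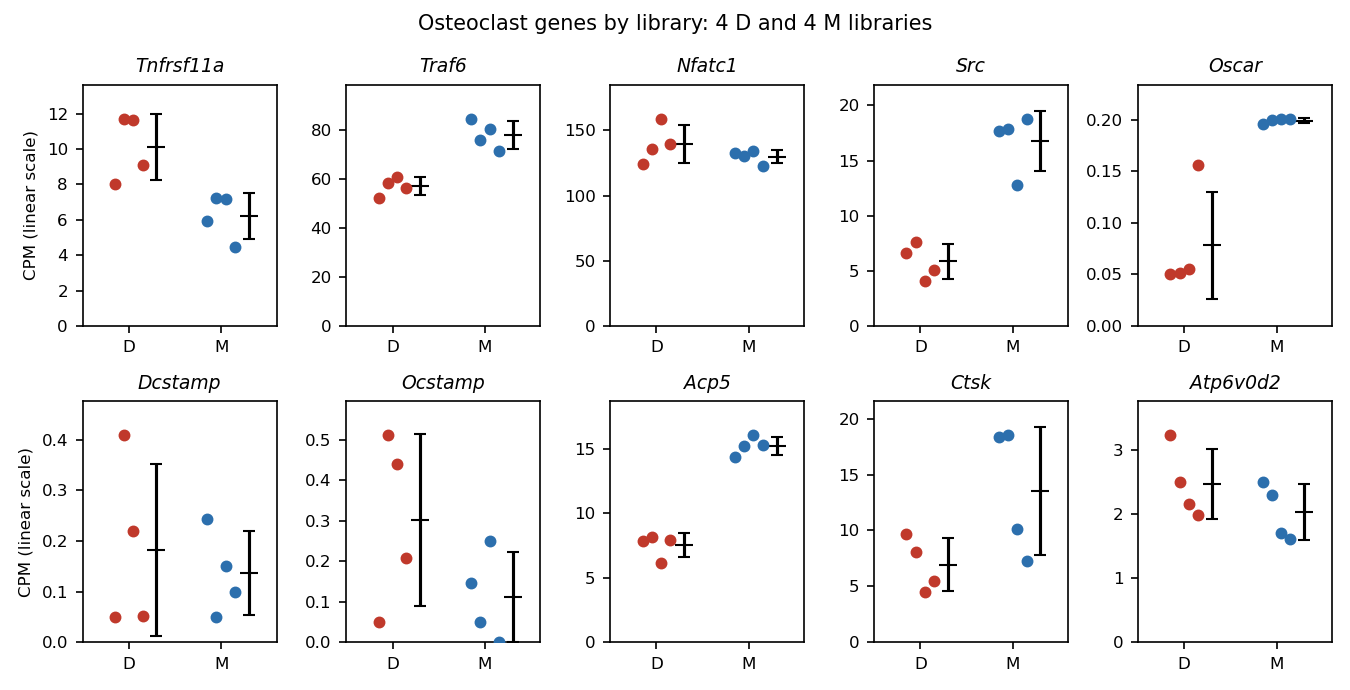
Level of each of the 10 osteoclast genes in CPM (linear axis from 0, a different range in each panel), with 1 point per library (4 D in red, 4 M in blue) and the mean ± SD beside each group. Points of D and M do not overlap for Acp5, Src, Traf6, Tnfrsf11a and Oscar, while those of Nfatc1, Ctsk, Atp6v0d2, Dcstamp and Ocstamp do.

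Levels of different genes were compared per transcript length, as TPM. Nfatc1 was the most abundant of the 10 in both groups, at 56.3 ± 3.67 TPM in D and 55.6 ± 2.13 in M (SD, n = 4), followed by Traf6 at 17.0 ± 0.749 and 24.8 ± 1.53. Acp5 was next at 9.65 ± 1.52 TPM in D and 21.1 ± 1.40 in M, and Ctsk followed at 7.30 ± 2.58 and 15.1 ± 6.04. These neighbours overlapped in both groups, since Ctsk reached 10.2 TPM in D replicate 1 and 20.4 in M replicate 1. The next places differed between the groups: in M, Src stood at 8.32 ± 1.26 TPM and Tnfrsf11a at 2.29 ± 0.503, whereas in D, Tnfrsf11a stood at 3.55 ± 0.615 and Src at 2.77 ± 0.830, which overlap. Atp6v0d2 lay at 1.70 ± 0.464 TPM in D and 1.54 ± 0.329 in M. Ocstamp (0.283 and 0.113 TPM), Dcstamp (0.200 and 0.165) and Oscar (0.0775 and 0.218) were the lowest and close to the limit of detection.

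Tnfrsf11a, on chromosome 1 (105780673 to 105849444, GRCm38), encodes RANK. In D it stood at 8.00, 11.7, 11.6 and 9.07 CPM (replicates 1 to 4, the order kept throughout), and in M at 5.91, 7.25, 7.16 and 4.47 CPM. Every D library was above every M library. The mean was 10.1 ± 1.86 CPM in D and 6.20 ± 1.30 in M (SD, n = 4), a 1.63-fold rise (log2 fold change 0.70 ± 0.18 SE, edgeR adjusted p = 0.0123). The call was kept in all 20 alternatives that were run, with adjusted p of 0.00131 to 0.0413. Most of its RNA was assigned to the curated transcript NM_009399, which took 93.3% ± 4.98 of Tnfrsf11a TPM in D and 87.4% ± 2.87 in M; the difference did not pass an exact permutation test (p = 0.143, adjusted p = 0.400 over 7 genes, smallest possible p = 0.0286).

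Oscar, on chromosome 7 (3609813 to 3616157), encodes the osteoclast-associated costimulatory receptor. It had 1, 1, 1 and 3 estimated counts in D and 4, 4, 4.45 and 4 in M. The groups did not overlap, but at 6 against 16.45 summed counts the gene was below the filter, and a fit without the filter gave a log2 fold change of -1.28 ± 0.61 with adjusted p = 0.147. Its difference was not detectable at this depth.

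Traf6, on chromosome 2 (101678420 to 101701668), encodes the ubiquitin ligase and adaptor that RANK recruits. Its level was 52.3, 58.5, 60.7 and 56.2 CPM in D and 84.4, 75.8, 80.2 and 71.2 in M, with no overlap. The mean fell from 77.9 ± 5.66 CPM in M to 56.9 ± 3.59 in D, a level 1.37-fold higher in M (log2 fold change -0.45 ± 0.07, edgeR adjusted p = 0.00145). The call was kept in all 20 alternatives. Receptor and adaptor thus moved in opposite directions: in D, RANK RNA was higher and TRAF6 RNA was lower.

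Src, on chromosome 2 (157423906 to 157471838), encodes the tyrosine kinase whose loss leaves osteoclasts unable to form a ruffled border. Its level was 6.64, 7.61, 4.08 and 5.05 CPM in D and 17.7, 17.9, 12.8 and 18.8 in M. The highest D library lay well under the lowest M library. The mean was 5.85 ± 1.58 CPM in D and 16.8 ± 2.71 in M, 2.86-fold higher in M, and this was the largest fitted change among the 7 tested members (log2 fold change -1.52 ± 0.19, edgeR adjusted p = 0.000334). The authors' estimated counts moved between 9 Src transcripts from library to library, so the gene sum is the firmer value. The call ended when only curated transcripts were summed (-2.45, adjusted p = 0.169) or only the most abundant transcript was used (-2.46, adjusted p = 0.210).

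Nfatc1, on the minus strand of chromosome 18 (80606205 to 80713071), did not pass the test at the gene level. It had 124, 136, 159 and 140 CPM in D and 133, 130, 134 and 123 in M. D1 lay within the range of M, and the other D libraries lay above it. The means were 139 ± 14.5 CPM in D and 130 ± 4.96 in M (log2 fold change 0.10 ± 0.08, 95% interval -0.07 to 0.28, edgeR adjusted p = 0.342). With library totals in place of TMM factors the value was -0.01 (adjusted p = 0.934), so the sign depends on the scaling.

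The transcripts of Nfatc1 changed unequally. The table lists 6, and they fall into 2 sets by their first exon. The gene is known to have a pair of promoters: an upstream one that is inducible and autoregulated by NFAT, and a downstream one that is used more constitutively. By GENCODE annotation, 3 transcripts (NM_001164109, NM_001164110 and NM_198429) begin in the distal, upstream exon, whose inner edge is at 80712640, and 3 (NM_016791, NM_001164111 and NM_001164112) begin in the proximal exon at 80708034 to 80708173. Among 19 tested transcripts of the 10 members, these 3 distal transcripts were the only ones called, all lower, against 4.02% of 32923 tested transcripts called, 2.24% higher and 1.78% lower.

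Summed over the distal transcripts, the level was 0.280, 0.870, 0.800 and 0.750 TPM in D and 4.14, 6.99, 7.63 and 5.51 TPM in M. Every D library was far under every M library. The same sum in estimated counts was 14.7, 43.2, 40.2 and 37.9 in D and 216, 345, 370 and 269 in M, so the D values rest on few reads. The proximal transcripts summed to 51.6, 55.5, 60.0 and 55.6 TPM in D and 51.2, 48.8, 50.7 and 47.6 in M. As a share of Nfatc1 TPM, the distal form was 1.18% ± 0.441 in D and 10.9% ± 2.54 in M (SD, n = 4; two-sided exact permutation p = 0.0286, the smallest that 4 against 4 allows).

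Fitted as separate features among all genes, the distal form was 8.39-fold higher in M (log2 fold change -3.07 ± 0.29, 95% interval -3.71 to -2.43, edgeR adjusted p = 7.9e-05). It was called in each of the 12 alternatives run for it (-3.20 to -2.78). The proximal form was 1.20-fold higher in D (0.26 ± 0.08, adjusted p = 0.0283), and that call ended with library totals (0.15, adjusted p = 0.0847) and without D replicate 2 (0.28, 0.0510), D replicate 4 (0.28, 0.0569), M replicate 2 (0.25, 0.0711), M replicate 3 (0.26, 0.0611) or M replicate 4 (0.24, 0.0829). The split by first exon was chosen after the transcript values had been seen, so its tests describe a pattern noticed in these data. The single distal transcripts had log2 fold changes of -3.14 (NM_001164109, adjusted p = 0.0192), -2.88 (NM_001164110, 0.0307) and -3.10 (NM_198429, 0.0192). Their calls were less firm than that of the sum: with the replicate number as a block none passed (adjusted p of 0.0583 to 0.0969). None passed without D replicate 2, D replicate 4, M replicate 2, M replicate 3 or M replicate 4, and 1 passed without M replicate 1. Lymphocytes also express Nfatc1, and B-lineage markers were lower in the same D libraries (81.6 to 282 CPM in D and 1257 to 1640 in M, summed). T and NK cell markers went the other way (58.1 to 66.7 CPM in D and 37.8 to 43.4 in M, summed). Of 7 tested, 4 were higher and 0 lower, against 17.4% and 17.3% of all tested genes. The part of these cells in the shift of Nfatc1 forms was not tested.

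**Figure D2:**
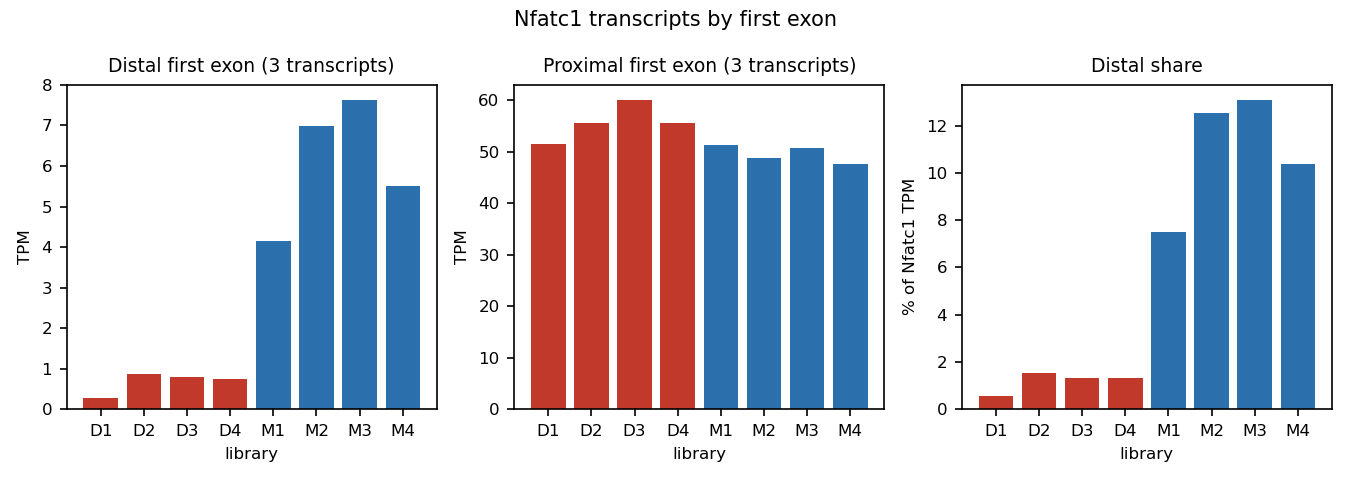
Nfatc1 transcripts grouped by first exon in each of the 8 libraries (D red, M blue): summed TPM of the 3 distal transcripts, summed TPM of the 3 proximal transcripts, and the distal share in percent of Nfatc1 TPM (linear axes from 0, 1 bar per library). The distal bars of D stay under 1 TPM and those of M lie between 4.14 and 7.63, whereas the proximal bars range from 47.6 to 60.0 TPM.

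The fusion genes were barely detected. Dcstamp, on chromosome 15 (39745930 to 39760938), encodes a membrane protein needed for osteoclast precursors to fuse, and had 1, 8, 4 and 1 estimated counts in D and 5, 1, 3 and 1.87 in M. Ocstamp, on chromosome 2 (165395450 to 165400394), encodes its partner protein and had 1, 10, 8 and 4 counts in D and 3, 1, 5 and 0 in M. The groups overlap for both. Fits without the count filter gave log2 fold changes of 0.40 ± 0.73 for Dcstamp (adjusted p = 0.724) and 1.38 ± 0.77 for Ocstamp (adjusted p = 0.226), and no difference was detectable at this depth. Atp6v0d2, on chromosome 4 (19876838 to 19922566), encodes a subunit of the proton pump that also serves in fusion. It stood at 3.22, 2.50, 2.15 and 1.98 CPM in D and 2.49, 2.30, 1.70 and 1.61 in M, which overlap (log2 fold change 0.28 ± 0.22, 95% interval -0.21 to 0.77, edgeR adjusted p = 0.344).

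Acp5, on chromosome 9 (22126727 to 22135746), encodes tartrate-resistant acid phosphatase, the enzyme stained to count osteoclasts. Its level was 7.85, 8.17, 6.12 and 7.92 CPM in D and 14.4, 15.2, 16.0 and 15.3 in M. The groups were tight and far apart. The mean was 7.52 ± 0.938 CPM in D and 15.2 ± 0.681 in M, 2.02-fold higher in M (log2 fold change -1.02 ± 0.11, 95% interval -1.26 to -0.78, edgeR adjusted p = 0.000127). Of 20 alternatives the call ended in 1, the sum over curated transcripts only (-0.68, adjusted p = 0.284). Predicted transcripts held much of the signal: XM_006509946 alone took 39.1% ± 11.4 of Acp5 TPM in D and 45.1% ± 11.8 in M.

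For Acp5, 3 annotated start sites were matched in the RefSeq promoter table (GRCm38.p6, 250 bases before to 50 after each start), and their windows are shown because the curated transcripts divide among them. NM_001102405 begins nearest the most upstream site, NM_001102404 nearest the middle one and NM_007388 at the most downstream one. They held 23.15, 87.94 and 102.91 summed counts in D and 68.78, 130.41 and 161.2 in M, so each was lower in D in these sums, and none was called alone (adjusted p of 0.815, 0.861 and 0.945). The windows are on the minus strand at chr9:22135697-22135996, chr9:22131816-22132115 and chr9:22130549-22130848. Capitals mark matches on either strand to the NFAT core GGAAA, the restricted E-box form CANGTG, the PU.1 core GAGGAA and the AP-1 element TGANTCA. Other forms of the E-box were not searched and are not marked.
Acp5 start 22135746: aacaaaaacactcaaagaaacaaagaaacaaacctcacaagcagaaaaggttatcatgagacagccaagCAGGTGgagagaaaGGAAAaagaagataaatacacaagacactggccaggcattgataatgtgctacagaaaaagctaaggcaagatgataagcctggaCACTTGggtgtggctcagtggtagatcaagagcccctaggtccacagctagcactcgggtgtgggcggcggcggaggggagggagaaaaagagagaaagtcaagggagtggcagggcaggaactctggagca
Acp5 start 22131865: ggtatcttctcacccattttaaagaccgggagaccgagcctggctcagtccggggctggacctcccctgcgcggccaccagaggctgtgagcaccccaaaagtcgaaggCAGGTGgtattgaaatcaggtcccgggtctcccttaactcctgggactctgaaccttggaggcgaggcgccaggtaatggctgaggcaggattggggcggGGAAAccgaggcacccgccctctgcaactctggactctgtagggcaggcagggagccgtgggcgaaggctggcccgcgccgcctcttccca
Acp5 start 22130598: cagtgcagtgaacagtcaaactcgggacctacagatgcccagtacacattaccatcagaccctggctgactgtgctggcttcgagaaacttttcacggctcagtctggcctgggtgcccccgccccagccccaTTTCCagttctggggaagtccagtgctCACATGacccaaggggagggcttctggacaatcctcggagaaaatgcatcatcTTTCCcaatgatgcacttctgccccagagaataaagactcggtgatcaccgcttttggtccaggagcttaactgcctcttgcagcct

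The 2 upstream windows hold 1 NFAT core each and the downstream one holds 2. E-boxes of the form CANGTG number 2, 1 and 1 from upstream to downstream. None of these windows holds the AP-1 or the PU.1 letters. These short motifs are common: GGAAA was found in 61.3% of the 32851 promoters of this length in the table, CANGTG in 44.9%, GAGGAA in 28.3% and TGANTCA in 7.81%. A match is a description of the letters.

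Ctsk, on chromosome 3 (95499210 to 95509387), encodes cathepsin K, the protease that digests bone collagen. Its level was 9.71, 8.07, 4.47 and 5.52 CPM in D and 18.3, 18.5, 10.2 and 7.28 in M. M replicates 1 and 2 were high, but M replicate 4 lay inside the range of D. The mean was 6.94 ± 2.38 CPM in D and 13.6 ± 5.71 in M, and the difference missed the threshold (log2 fold change -0.96 ± 0.35, 95% interval -1.75 to -0.18, edgeR adjusted p = 0.0593). In each same-numbered pair Ctsk was lower in D, and with the replicate number as a block it was called (-0.93, adjusted p = 0.00242). It was also called by DESeq2 (-0.94, adjusted p = 0.0100), with library totals (-1.06, 0.0405), on log2(TPM + 1) (-0.93, 0.0427) and log2(TPM + 0.1) (-1.01, 0.0458) over genes of at least 1 TPM, and without M replicate 4 (-1.17, 0.0196).

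The windows of Ctsk and of Tnfrsf11a are shown beside those of Acp5, since Ctsk had the nearest fold change to Acp5 and Tnfrsf11a moved the other way. Both lie on the plus strand, at chr3:95498960-95499259 and chr1:105780473-105780772, with the same capitals.
Ctsk: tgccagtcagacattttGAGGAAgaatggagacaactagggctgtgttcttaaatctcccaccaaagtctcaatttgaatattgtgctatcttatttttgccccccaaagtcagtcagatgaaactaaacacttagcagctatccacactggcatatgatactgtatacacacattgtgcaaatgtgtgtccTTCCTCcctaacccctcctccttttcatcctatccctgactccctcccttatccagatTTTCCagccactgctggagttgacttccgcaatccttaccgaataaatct
Tnfrsf11a: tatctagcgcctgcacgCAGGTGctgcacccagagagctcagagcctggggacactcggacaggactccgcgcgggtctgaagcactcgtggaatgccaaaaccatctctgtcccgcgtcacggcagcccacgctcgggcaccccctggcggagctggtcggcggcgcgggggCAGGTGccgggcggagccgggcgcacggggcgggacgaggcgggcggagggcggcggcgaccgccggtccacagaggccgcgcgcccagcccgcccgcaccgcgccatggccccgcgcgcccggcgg

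The Ctsk window holds 1 NFAT core, 2 PU.1 matches and no E-box of the form CANGTG. The Tnfrsf11a window holds 2 such E-boxes and no NFAT core. Neither window holds the AP-1 letters. In all, 6 of the 10 members were matched to 8 windows, the others being of Src, Traf6 and Oscar. Src and Traf6, both called lower, hold no NFAT core and no such E-box, with 1 and 2 PU.1 matches. Oscar, which was not tested, holds 4 NFAT cores, 2 PU.1 matches and 4 such E-boxes. The loose NF-kB pattern is not capitalised and occurs in 50.8% of all promoters. Tnfrsf11a and Traf6 hold 2 matches each, Src holds 6, and Ctsk and Oscar hold 0. The Acp5 windows hold 0, 2 and 2 from upstream to downstream.

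**Figure D3:**
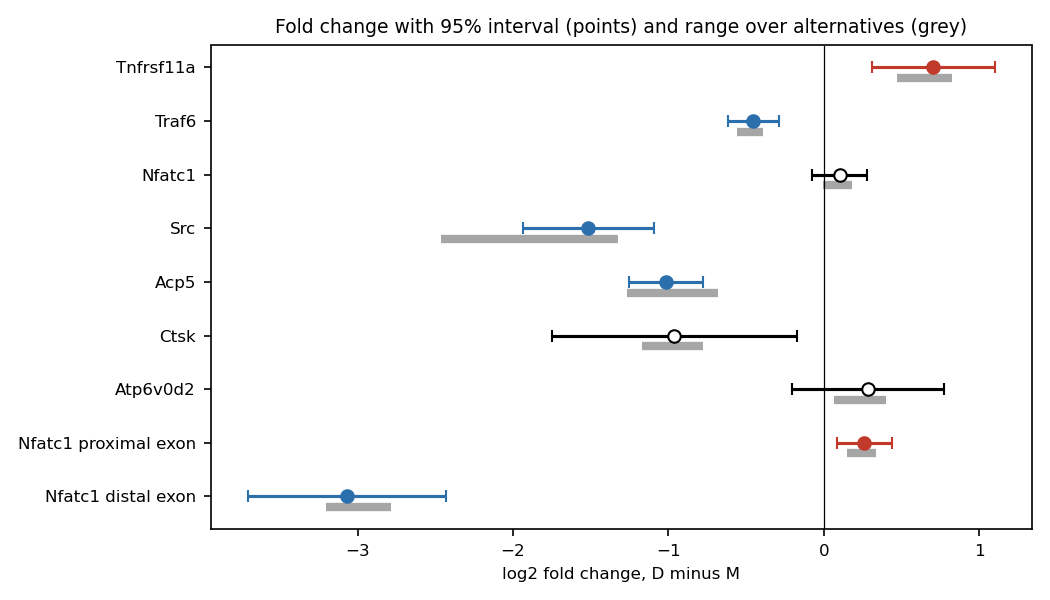
Log2 fold change, D minus M, of the 7 tested osteoclast genes and of the 2 sets of Nfatc1 transcripts (points with 95% intervals; red called higher, blue called lower, open not called), with the range over all alternatives as a grey bar under each. Src, Acp5 and Traf6 lie left of 0 over their whole range and Tnfrsf11a right of it, the sum of Nfatc1 reaches 0, and its distal form lies near -3.07.

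Within a gene, the share of TPM held by its most abundant transcript was compared for the 7 members with at least 2 transcripts and a mean of at least 1 TPM. None passed the test between the groups (exact permutation tests, adjusted p of 0.400 to 0.771, smallest raw p = 0.0857 for Atp6v0d2, with 0.0286 the smallest possible). For Nfatc1 this main transcript is the proximal NM_016791, at 37.6% ± 0.700 in D and 36.9% ± 1.29 in M, so the shift of first exons did not show in that measure. For Src the share of NM_001025395 ran from 0% to 70.9% in D and from 28.4% to 100% in M, a spread too wide to compare.

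**Figure D4:**
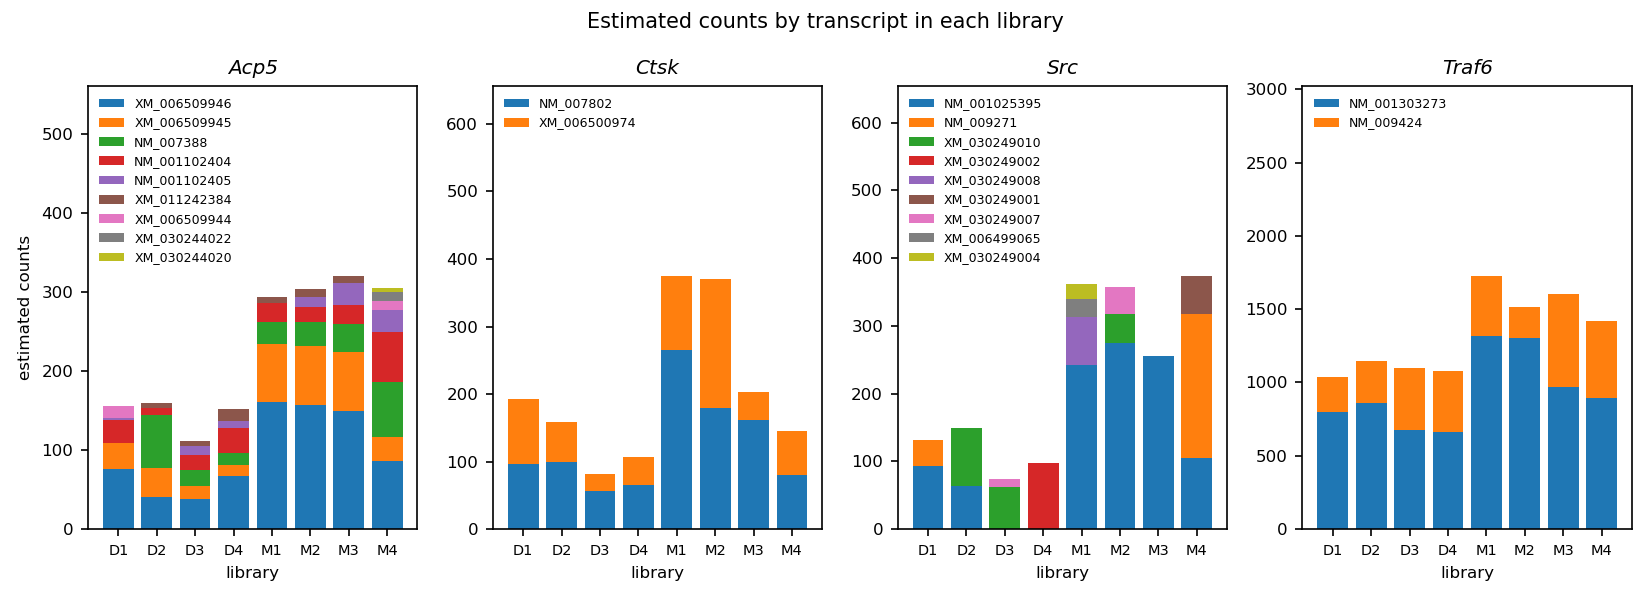
Estimated counts of Acp5, Ctsk, Src and Traf6 in each of the 8 libraries, stacked by transcript (linear axes from 0, a different range in each panel). Every M column of Acp5, Src and Traf6 is taller than every D column, and the Src columns are split among different transcripts in different libraries while those of Traf6 keep the same 2.

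Around these genes, 204 genes of the osteoclast programme were listed by role, of which 190 were tested. In D, 77 were higher and 33 lower (57.9% called, against 34.7% of all tested genes), and their median log2 fold change was 0.12 against -0.03 over all. The balance depended on scaling: 70% of the called pathway genes were higher with TMM factors, 55.6% with library totals and 54.9% to 59.6% on TPM. Over all called genes the higher share was 50.1%, 31.3% and 32.5% to 33.3% under the same choices, and library totals moved the median of all genes to -0.14.

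Of the ligands, Tnfsf11 (RANKL) was at 0.207 ± 0.170 CPM in D and 0.312 ± 0.171 in M and its decoy receptor gene Tnfrsf11b (osteoprotegerin) at 0.0256 and 0.187 CPM, both under the filter. Csf1, which encodes M-CSF itself, was at 89.2 ± 34.0 CPM in D and 47.0 ± 7.27 in M (edgeR adjusted p = 0.0222; 0.0502 without D replicate 2, 0.0533 without M replicate 1 and 0.0603 without M replicate 4), and its receptor gene Csf1r rose 1.30-fold (adjusted p = 0.00729; 0.0666 on log2(TPM + 1) over all genes). Of 15 tested receptors and costimulatory genes 9 rose and 1 fell (66.7% called, against 34.7% of all tested genes). Their median log2 fold change was 0.37. Fcer1g, an ITAM adaptor that partners with OSCAR, rose from 328 ± 28.7 to 418 ± 17.7 CPM (adjusted p = 0.00619). Tyrobp, the ITAM adaptor for TREM2, was at 921 ± 138 CPM in M and 1002 ± 79.0 in D and did not pass (adjusted p = 0.405), nor did Trem2 (0.584). Siglec15, an osteoclast lectin, was 2.83-fold higher in M (0.462 ± 0.335 CPM in D and 1.33 ± 0.269 in M, adjusted p = 0.0140). D1 was its highest D library at 0.956 CPM, and without it the log2 fold change went from -1.50 to -2.11 (adjusted p = 0.000787).

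Downstream of RANK and the ITAM adaptors, 7 of 33 genes rose and 8 fell (45.5% called, against 34.7% of all tested genes). The median of the 33 was -0.02. The adaptor gene Lcp2 rose from 145 ± 7.85 to 225 ± 29.7 CPM (edgeR adjusted p = 0.000807) and the p38 kinase gene Mapk14 from 257 ± 12.5 to 366 ± 43.3 (0.00193). Ikbkg (NEMO), the regulatory subunit of the IkB kinase complex, fell from 164 ± 11.6 to 103 ± 8.34 CPM (0.000196; 0.0506 for the most abundant transcript). Blnk, an adaptor of both B cells and osteoclast precursors, was 5.36-fold higher in M (adjusted p = 0.00110) and is itself on the B-lineage list. Among relatives of Traf6, Traf4 (log2 fold change -0.77, adjusted p = 0.00422) and Traf5 (-0.74, 0.000933) fell with it and Traf1 rose (0.78, 0.00405; 0.0969 for the most abundant transcript and 0.384 for curated ones). Traf2 passed narrowly (-0.19, 0.0463) and lost its call in 15 of 20 alternatives, each of the 8 left-out libraries among them (0.0581 to 0.141), and Traf3 and Traf7 did not pass (0.112 and 0.458). Traf3 was called higher without D1 (0.36, 0.00245) and without D1 and D3 (0.31, 0.00699), and Traf7 lower with library totals (-0.18, 0.0391). Relatives of Src went both ways: Fgr rose 1.73-fold (adjusted p = 0.00122), whereas Fyn (-0.57, 0.00843) and the B-cell kinase gene Blk (-2.81, 0.000568) fell. Lyn (0.35, 0.0159) and Yes1 (0.80, 0.0226) also rose, with calls lost in 3 and 5 of 20 alternatives, among them M replicate 4 left out (0.0507 and 0.0521) and, for Yes1, M replicate 1 (0.0633). Among relatives of Nfatc1, Nfatc2 rose (0.61, 0.00371) and Nfatc3 fell (-0.43, 0.000502); when only the most abundant transcript was used, Nfatc2 was at -1.66 with adjusted p = 0.406.

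Of 20 transcription factors tested 8 rose and 2 fell (50% called, against 34.7% of all tested genes). Fosl2, an AP-1 subunit, rose 2.01-fold (115 ± 21.8 to 231 ± 50.1 CPM, edgeR adjusted p = 0.00250) and Fos, required for osteoclast fate, 1.34-fold (0.0121; 0.0522 on log2(TPM + 1) over all genes). Spi1, which encodes the lineage factor PU.1 (0.26, 0.0253), and Mitf, a partner of PU.1 (0.49, 0.0286), passed in the main test but lost their calls in 9 of 20 and 10 of 19 alternatives, including fits that left out D4, M2 or M4 for Spi1 (adjusted p of 0.0645 to 0.0736), and D2, D3, M1, M3 or M4 for Mitf (0.0601 to 0.0794). Of 22 genes listed as restraints on osteoclast formation 12 rose and 3 fell (68.2% called, against 34.7% of all tested genes). Their median was 0.32, and their role is as listed and was not tested here. Bcl6 rose 1.72-fold (adjusted p = 0.00338; 0.0700 for the most abundant transcript and 0.0537 for curated ones), while the Notch target Hes1 fell (0.938 ± 0.216 CPM in D and 2.40 ± 0.371 in M, 0.00158) and so did Id3 (-1.04, 0.0106). Irf8, another restraint, was at 132 ± 43.4 CPM in D and 179 ± 9.42 in M and did not pass (adjusted p = 0.132).

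Of the 14 tested fusion genes beside Dcstamp and Ocstamp, 6 rose and 2 fell (57.1% called, against 34.7% of all tested genes). Cd44 was among those that rose (742 ± 43.7 CPM in M and 1129 ± 155 in D, edgeR adjusted p = 0.00171). Of 28 tested genes of acid secretion and matrix degradation 8 rose, 1 fell and 19 did not pass, a called share of 32.1% that is near the 34.7% over all tested genes. Mmp9, a matrix protease that neutrophils also make, rose 1.80-fold to 2229 ± 519 CPM (adjusted p = 0.00207), and Clcn7, the chloride transporter of the resorption space, was 1.29-fold higher in M (0.00395). Its partner gene Ostm1 rose (0.27, 0.0173; 0.0536 without M replicate 3 and 0.0564 without M replicate 4). Car2, the carbonic anhydrase that supplies protons, was at 124 ± 76.5 CPM in D and 182 ± 59.3 in M (adjusted p = 0.396), and Atp6v0d1, the widely expressed relative of Atp6v0d2, was at 237 ± 24.8 and 213 ± 19.1 (0.217). The pump gene Tcirg1 did not pass (-0.26, adjusted p = 0.0604). It was called lower with the replicate block (-0.26, 0.00991), with library totals (-0.37, 0.0169) and on TPM (-0.35, 0.0191 to 0.0324). Leaving out D replicate 1 (-0.30, 0.0335), M replicate 4 (-0.32, 0.0429) or D replicates 1 and 3 (-0.34, 0.0382) also gave a call. Of 27 tested genes of the sealing zone and cytoskeleton 15 rose and 5 fell (74.1% called, against 34.7% of all tested genes). Itgb3, the beta subunit of the osteoclast vitronectin receptor that works with Src, was 74.3, 97.5, 71.5 and 82.9 CPM in D and 159, 164, 129 and 175 in M. Its groups did not overlap (log2 fold change -0.94 ± 0.12, adjusted p = 0.000290). Megakaryocytes also express Itgb3, and their markers Pf4, Itga2b, Ppbp and Gp9 were all lower in D; their part in the fall of Itgb3 was not tested. The partner subunit gene Itgav did not pass (0.30, 0.0587), and was called higher with the replicate block (0.29, 0.0121), with DESeq2 size factors (0.32, 0.0489), by the DESeq2 test (0.32, 0.0355), without D1 (0.41, 0.00702) and without D1 and D3 (0.32, 0.0256). Cttn (-0.88, 0.00504), which encodes the Src substrate cortactin and is named here for its likeness to Src across libraries, also fell, as did Csk, the kinase that restrains Src (-0.41, 0.00184), whereas Cdc42 (0.44, 0.00111) and Pxn (0.51, 0.00262) rose.

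**Figure D5:**
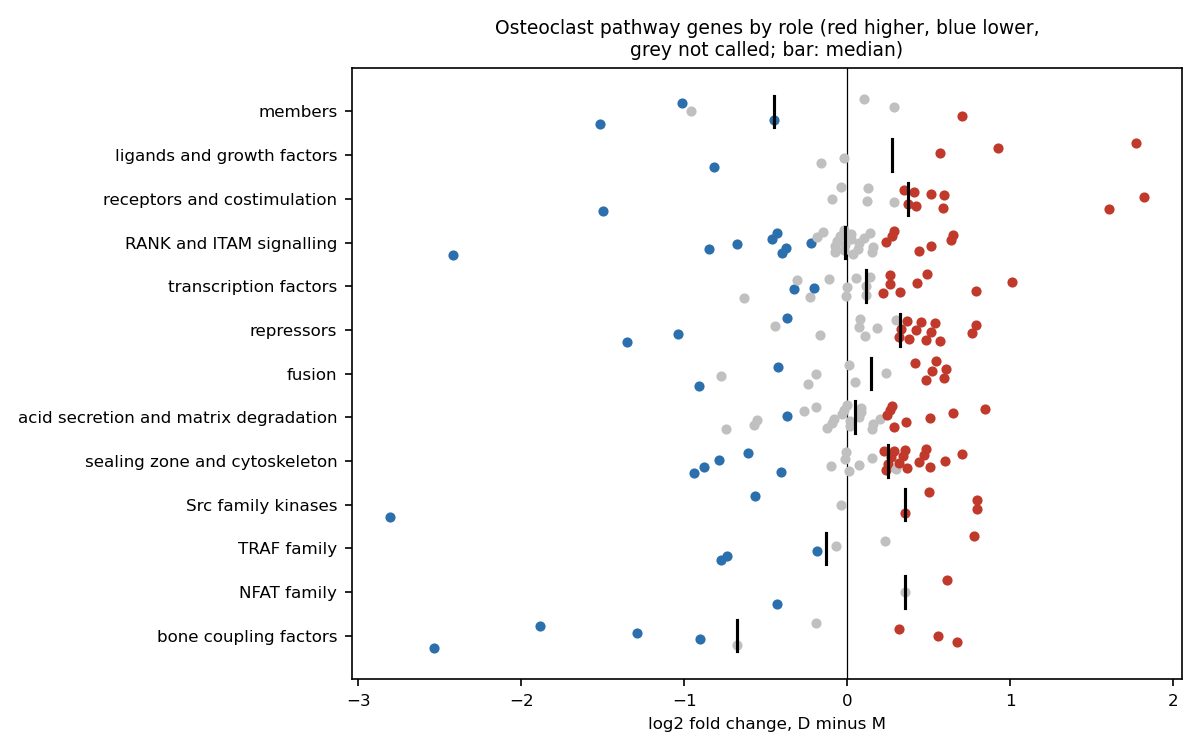
Log2 fold change, D minus M, of the tested genes of each role list (1 point per gene, red called higher, blue called lower, grey not called, black bar the list's median). The 7 tested members have a median of -0.45, the receptors 0.37 and the repressors 0.32, and genes on both sides of 0 occur in every list.

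How the members varied between libraries of 1 group was described by subtracting each group's mean from log2(CPM + 1) and correlating over the 8 libraries. These values share depth and scaling and carry no test. Ctsk and Atp6v0d2 varied most alike among the members (Pearson r = 0.915), then Traf6 and Nfatc1 (0.791), and Src and Nfatc1 varied oppositely (-0.750). Acp5 varied little with Ctsk (0.238). Each nearest gene given next is the highest of 10233 or 10234 correlations over 8 libraries, so a high value alone shows no link. Over genes of at least 5 CPM, the nearest to Src was Cttn (0.974), to Acp5 Zfp932 (0.991), to Ctsk Pdcl3 (0.995), to Traf6 Ppp1r12c (0.992), to Nfatc1 Ralgps1 (0.997), to Tnfrsf11a Napg (0.989) and to Atp6v0d2 Bhlhe41 (0.974).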

How the data were processed

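Polyadenylated RNA was captured with oligo(dT), per the labels' design text, which names SOAPnuke 1.5.6 for read filtering and HISTA2 2.1.0 (so spelled) for alignment to mm10. The submitters' processing notes also name GRCm38. Which quantifier, annotation release and strand setting were used is not given in the sources. For each RefSeq transcript the authors deposited unnormalized estimated counts and TPM values scaled by transcript length to a fixed total in each library. A further 24 columns of the table were not used.

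Estimated counts were summed per gene, rounded and filtered with edgeR's filterByExpr (minimum count 10, minimum total 15). Groups were compared in R 4.3.3 by the robust quasi-likelihood test of edgeR 4.0.16, with TMM factors and group as the only term, with p-values adjusted by Benjamini-Hochberg over all features and 0.05 as the threshold. The same fit was made per transcript. CPM uses TMM-scaled library sizes. Scripts were tested on simulated data. No pair of replicates agreed within sampling noise (chi-square 6.54 to 67.9 per gene). D and M libraries of the same number had deviations that correlated at 0.138 to 0.205, and those of other pairs at -0.239 to 0.116. Every same-numbered pair was over 0.1, the limit set for reading the numbers as a possible pairing, from the data only. M3 with D4, of unlike numbers, was also over it at 0.116, and no label states a pairing. The main test did not use it, and it entered only as the replicate block among the alternatives. Alternatives used DESeq2 1.42.0, limma 3.58.1 voom, TPM with pseudocounts 1 and 0.1, other transcript sums, no filter, a replicate block and left-out libraries. The transcript starts are from GENCODE on GRCm38 and promoters from RefSeq.

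The members, the role and marker lists, and the tests were chosen with earlier results of these data known. Pathway genes were named from a list always shown and from each list's 2 called genes of lowest p in each direction. Some genes that this rule names are not reported here.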

Additional observations from a re-analysis of the deposited data

Results flagged for a closer look

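The check covered 166 groups of 4 libraries, 1 per condition for each named gene, each main transcript share and each Nfatc1 first-exon value checked. In 11 of them a library's gap to its nearest neighbour exceeded Dixon's 95% limit, where chance flags about 1 in 20. Among the osteoclast genes, Acp5 was lowest in D replicate 3 at 6.12 CPM (others 7.85 to 8.17). Without that library Acp5 kept its call. Oscar was at 0.156 CPM in D replicate 4 (others 0.0503 to 0.0552) and 0.195 in M replicate 1 (others 0.200 to 0.201), values of 1 to 4.45 counts. Tnfsf11 was at 0.460 CPM in D replicate 2 (others 0.101 to 0.156).

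M replicate 1 was high for the ITAM adaptor genes Tyrobp (1127 CPM, others 839 to 867) and Fcer1g (371.1, others 310 to 317). M replicate 2 was high for Traf1 (8.14, others 5.96 to 6.22). M replicate 4 was low for Lcp2 (133, others 147 to 150) and high for Efnb2 (3.86, others 2.39 to 2.50). D replicate 4 was high for Jund (121, others 103 to 106), and D replicate 3 was low for Id3 (3.09, others 7.76 to 8.50).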

How the results depend on the processing

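Traf6 and Tnfrsf11a kept their calls in all 20 alternatives, Acp5 in 19 and Src in 18. The count of osteoclast genes lower in D was 1 when only curated transcripts were summed, and 3 to 4 when a library was left out. Pathway genes higher in D numbered 45 on log2(TPM + 1) over all genes, 42 for the most abundant transcript and 51 for curated transcripts, and 54 to 82 with a library left out. Those lower in D numbered 16 and 20 for the most abundant and the curated transcripts, and 26 to 33 with a library left out. Over all genes, 2036 and 2469 were called under those choices of transcripts, and 3458 to 5369 with a library left out. Calls of osteoclast transcripts fell from 3 to 1 without the count filter and to 0 with the replicate block, and ran from 0 to 3 with a library left out. For these the cause was not tested.

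The replicate block called Ctsk (-0.93, adjusted p = 0.00242), Tcirg1 (0.00991) and Itgav (0.0121), ended the call of Traf2 (0.0594) and changed no other gene call among those named; it called 4815 of all genes. Signs turned beside that of Nfatc1 (-0.00726 with library totals): Nfatc2 (-1.66, most abundant transcript) and Lck, which never passed (0.41 for the most abundant transcript, 0.11 for curated ones, -0.129 to 0.0803 with a library left out, positive without D replicate 3 or M replicate 3, and 0.14 without D replicates 1 and 3). Depth limits Dcstamp, Ocstamp and Oscar, with 0 to 10 counts a library. The first-exon sums of Nfatc1 and the alternatives of pathway genes were added after the data were seen. Error in assigning reads to transcripts is not seen by the test, and reads of antisense genes cannot be told apart without strand.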

Other observations

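Osteoclasts and their precursors also send signals to bone-forming cells. The list drawn up for such coupling also holds C3ar1, which encodes a receptor and no sent factor. Of its 9 tested genes 3 rose in D, C3ar1 among them, 4 fell and 2 did not pass. Over all tested genes 34.7% were called, 17.4% higher and 17.3% lower. Wnt10b, which encodes a ligand that promotes bone formation, was at 0.499 ± 0.337 CPM in D and 2.96 ± 0.459 in M (SD, n = 4; log2 fold change -2.54, edgeR adjusted p = 0.000721). Efnb2, which encodes an ephrin presented to osteoblasts, was at 1.15 ± 0.147 CPM in D and 2.82 ± 0.701 in M (-1.29, adjusted p = 0.00178). Both calls ended when only the most abundant transcript was used (adjusted p of 0.119 and 0.348). Hgf, which encodes hepatocyte growth factor, rose from 13.2 ± 2.18 to 19.3 ± 2.51 CPM (adjusted p = 0.00962; 0.0865 for the most abundant transcript). C3ar1, the complement C3a receptor gene, was at 26.5 ± 4.71 CPM in D and 16.6 ± 5.16 in M (adjusted p = 0.0401) and lost its call in 13 of 20 alternatives, including fits that left out D1, D2, D3, M1 or M3 (0.0656 to 0.101). Osteoblast and stromal markers were present and differed between the groups (2 of 7 tested higher and 4 lower in D), and their part in these values was not tested.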
